A study of Mus musculus with 22 samples.

Results

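The replication licensing genes described here are Mcm2, Mcm3, Mcm4, Mcm5, Mcm6, Mcm7, Pcna, Cdc6 and Cdt1. They were chosen by name, with no threshold on a measured value but with earlier results of these data known, and are 9 of the 21887 protein-coding genes on the assembled mouse chromosomes. For each gene the window was its body plus 10 kb to each side on GRCm38, and the measurement was the percent of that window covered by regions in each of 18 lists from chromatin immunoprecipitation sequencing (ChIP-seq). Each list came from 1 library of mouse dermal fibroblasts, either WT or Lap2alpha KO, immunoprecipitated for lamin A/C (antibody 3A6 or E1), BRG1, CHD4 or, in WT alone, Lap2alpha (antibody 1H11), from chromatin sonicated for 16 or 20 cycles. Both genotypes grew in DMEM with fetal calf serum and were fixed with DSG as well as formaldehyde. The strain and age of the donor animals, and how the KO was made, were not given in the labels. Lap2alpha ChIP was analysed in WT alone and the 4 input samples were not analysed here, so the loss of Lap2alpha was not checked in these data. Each combination of genotype, antibody and cycles was sequenced from a single library, so the differences were left untested and carry no p-values.

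Licensing is the loading of the ring-shaped helicase made of Mcm2 to Mcm7 onto replication origins before S phase, by the origin recognition complex together with Cdc6 and Cdt1. Pcna is the sliding clamp that holds DNA polymerases on the template once replication has begun. In fibroblasts that stop dividing these genes are repressed through E2F factors bound by the retinoblastoma protein, a partner of Lap2alpha and A-type lamins. BRG1 is an ATPase of the SWI/SNF chromatin remodelling complexes, CHD4 is an ATPase of the NuRD complex, and lamins A and C are nuclear intermediate filament proteins.

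The lists differed in form, which bears on each comparison. Where regions of different lists overlapped, they often had exactly the same centre, with no tolerance allowed, and by this measure the lists fell into 3 sets. The first set of 11 lists held the WT lists other than E1 and the KO lists for BRG1, CHD4 and 3A6 at 16 cycles, and 69.7% to 88.9% of overlapping regions between its lists shared a centre. The second set held the 4 E1 lists and KO CHD4 at 20 cycles, with 84.0% to 92.9% shared within it and at most 1.23% shared with the first. The third set was KO BRG1 and KO 3A6 at 20 cycles. These shared 80.2% to 80.6% with each other and 29.6% to 41.2% with the first, counted in either direction. The WT and KO lists of a pair were therefore of different sets for 3A6, BRG1 and CHD4 at 20 cycles, and in these pairs the form of the list and the genotype cannot be told apart. Lists held from 7283 regions (KO CHD4 at 20 cycles) to 233745 (KO E1 at 20 cycles). The lists of a pair also differed in length. At 16 cycles the KO list covered 1.70 times the bases of its WT list for BRG1, 2.18 for CHD4, 1.87 for 3A6 and 2.44 for E1. At 20 cycles these ratios were 0.862, 0.0430, 0.908 and 1.66. As a check of the cell type, 11 of 12 fibroblast marker genes, but 0 of 6 keratinocyte, 1 of 4 endothelial, 0 of 4 leukocyte, 1 of 4 melanocyte and 0 of 4 muscle markers, had a BRG1 region within 1 kb of a gene end in all 4 BRG1 lists, as did 33.9% of all genes.

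The promoters are shown first because the remodeller regions at these genes lay on or beside them. Sequences are from the RefSeq promoter table for GRCm38.p6, which matched 8 of the 9 genes (Mcm4 is named without one) with 9 entries, Mcm7 having more than 1 start, of which the upstream is printed. They are printed 5′ to 3′ on the gene's strand from 200 bases before the start, and capitals mark matches to TTTNNCGC, the E2F motif, on either strand.
Mcm5 promoter, chr8:75109309-75109538, plus strand: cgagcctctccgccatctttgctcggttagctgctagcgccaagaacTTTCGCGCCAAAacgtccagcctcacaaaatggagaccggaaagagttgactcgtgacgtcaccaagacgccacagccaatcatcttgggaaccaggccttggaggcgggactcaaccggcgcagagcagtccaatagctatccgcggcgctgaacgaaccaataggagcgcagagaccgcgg
Mcm6 promoter, chr1:128359676-128359905, minus strand: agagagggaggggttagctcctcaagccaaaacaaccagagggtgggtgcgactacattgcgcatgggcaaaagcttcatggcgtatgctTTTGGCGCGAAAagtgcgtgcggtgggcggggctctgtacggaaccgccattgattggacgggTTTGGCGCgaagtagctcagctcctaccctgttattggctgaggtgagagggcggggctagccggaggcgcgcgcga
Mcm7 promoter, chr5:138171854-138172083, minus strand: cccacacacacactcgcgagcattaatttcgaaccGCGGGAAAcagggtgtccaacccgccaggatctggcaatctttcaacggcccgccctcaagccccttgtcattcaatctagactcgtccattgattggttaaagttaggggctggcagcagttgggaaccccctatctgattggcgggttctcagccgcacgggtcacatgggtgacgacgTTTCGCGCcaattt
Cdc6 promoter, chr11:98907951-98908180, plus strand: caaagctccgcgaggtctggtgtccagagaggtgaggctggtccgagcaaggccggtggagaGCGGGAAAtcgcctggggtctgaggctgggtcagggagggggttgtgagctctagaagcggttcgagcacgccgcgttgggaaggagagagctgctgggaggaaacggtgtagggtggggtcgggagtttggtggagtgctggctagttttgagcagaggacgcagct
Pcna promoter, chr2:132253151-132253380, minus strand: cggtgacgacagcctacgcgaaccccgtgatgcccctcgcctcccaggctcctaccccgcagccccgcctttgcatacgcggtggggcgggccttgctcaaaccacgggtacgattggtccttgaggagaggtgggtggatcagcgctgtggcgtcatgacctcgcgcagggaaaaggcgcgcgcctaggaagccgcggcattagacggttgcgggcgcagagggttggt
Mcm2 promoter, chr6:88898751-88898980, minus strand: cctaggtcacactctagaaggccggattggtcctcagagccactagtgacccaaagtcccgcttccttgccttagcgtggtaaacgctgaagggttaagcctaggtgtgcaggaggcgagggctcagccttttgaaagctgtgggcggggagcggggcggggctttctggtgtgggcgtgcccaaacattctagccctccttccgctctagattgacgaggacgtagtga
In the full window of 250 bases before to 50 after the start, the E2F motif was found in 6 of the 9 entries, those of Mcm3, Mcm5, Mcm6, Mcm7, Cdc6 and Cdt1, against 5.17% of all 32851 promoters in the table. In Mcm5 and Mcm6 a pair of matches on opposite strands overlapped. The Pcna and Mcm2 stretches, printed for contrast, held no match. The CCAAT box (CCAAT, either strand) was in 7 of 9 entries against 37.4% of all promoters, and the GC box (GGGCGG, either strand) in 7 of 9 against 35.7%. The CHR element of cell cycle genes (TTTGAA, either strand) was in 1 of 9, Mcm2, against 17.9%. These are matches of letters in these windows, not measured binding sites.

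**Figure D1:**
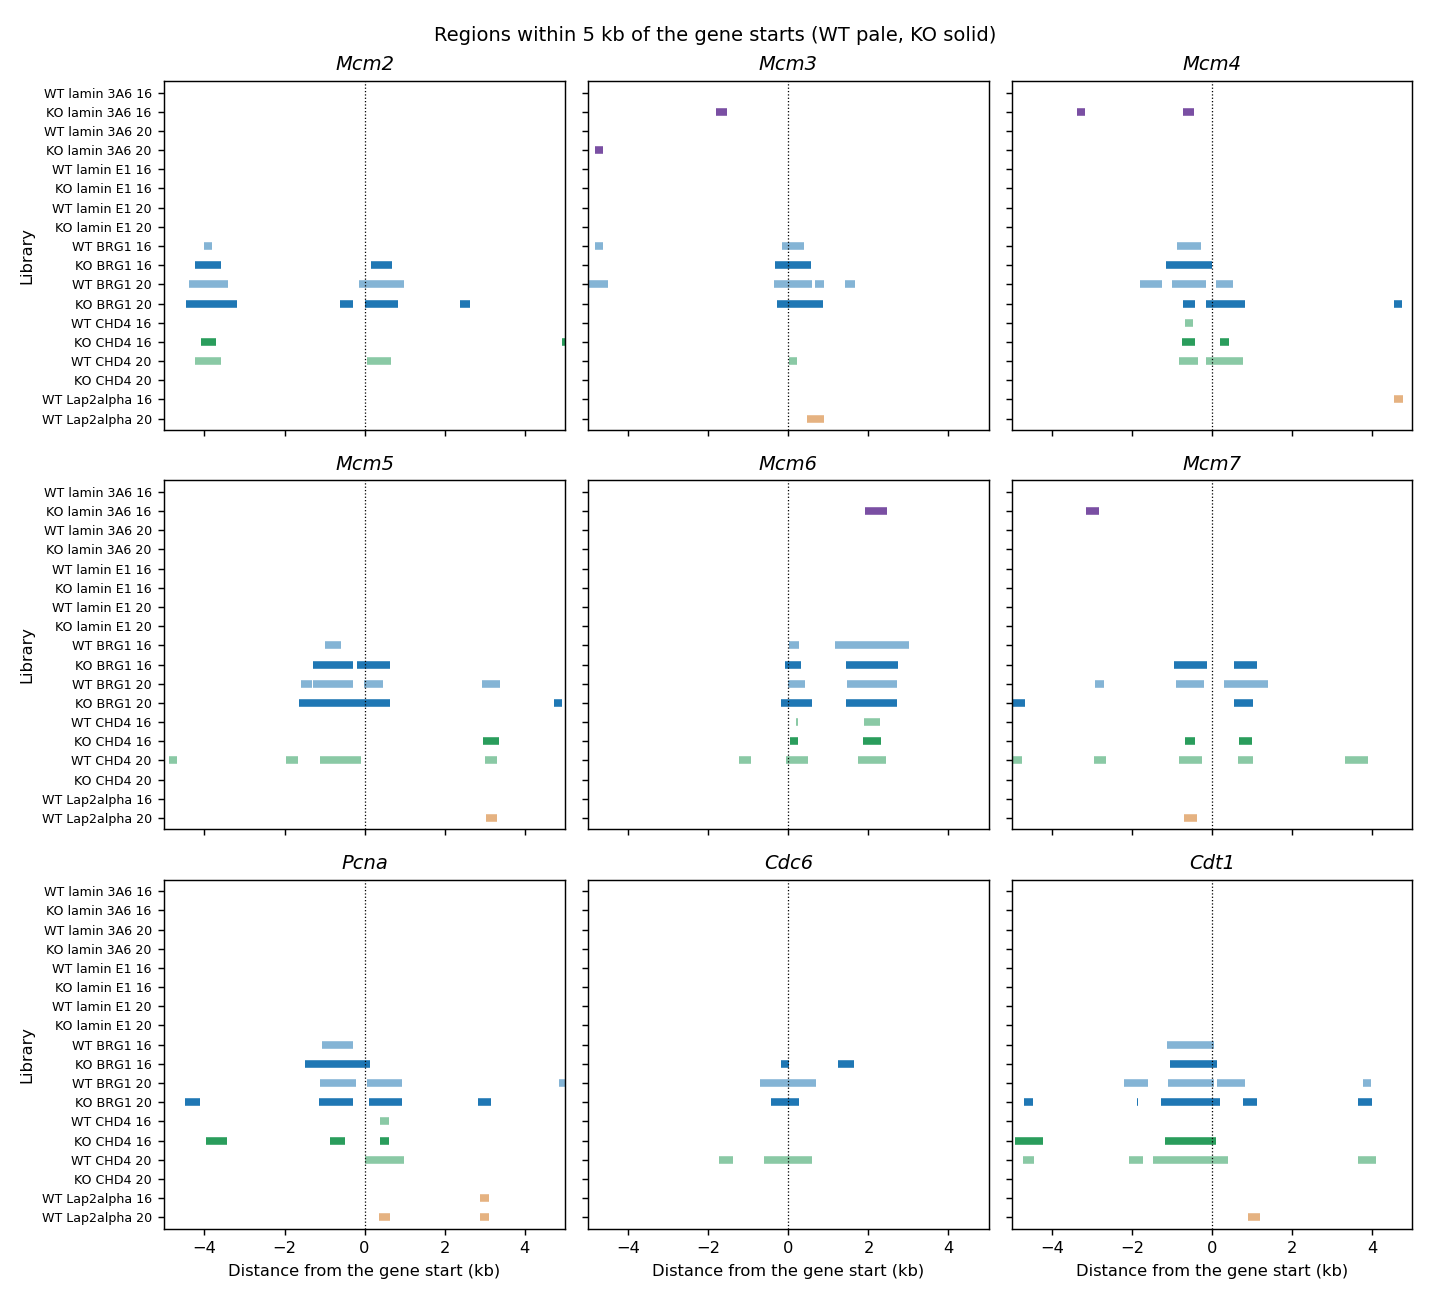
Regions of the 18 lists (rows) within 5 kb of the start of each of the 9 genes; the horizontal axis is the distance from the start in kb, positive into the gene, and colours mark lamin A/C (purple), BRG1 (blue), CHD4 (green) and Lap2alpha (orange), with WT pale and KO solid. For Mcm4 the start is the gene end that faces Prkdc. BRG1 regions lay within 1 kb of the start of all 9 genes in 3 of the 4 lists, while lamin A/C regions were rare and all from KO.

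BRG1 was the target found most regularly at the licensing genes. A BRG1 region lay within 1 kb of a gene end (a gene-end region) at 6 of the 9 genes in all 4 BRG1 lists, where 33.9% of all protein-coding genes had this. These were Mcm3, Mcm4, Mcm5, Mcm6, Pcna and Cdt1. The other genes, Mcm2, Mcm7 and Cdc6, lacked such a region in WT at 16 cycles alone, so that 9 of 9 had it in the remaining 3 lists, against 49.7% of all genes; 15.8% of all genes had it in those 3 and not in WT at 16 cycles. List by list, 36.2% (WT) and 54.4% (KO) of all genes had one at 16 cycles, and 63% and 58.9% at 20 cycles. Among the 9848 genes whose body was as long as the members' (3.90 to 28.1 kb), the share in all 4 lists was 33.6% and the share in the remaining 3 lists was 54.5%. These regions covered bases next to the starts: all 4 lists shared 546 bp from −157 to 388 at Mcm3, 252 bp from 14 to 265 at Mcm6, and 712 bp from −1000 to −289 at Pcna, counted from the start and cut at 1 kb. They shared 302 bp beside Mcm4, 396 bp before Mcm5 and 1042 bp, mostly before the start, at Cdt1. At Cdc6, whose protein acts in helicase loading, the 3 lists shared 202 bp from −181 to 20, chr11:98907970-98908171. This stretch holds the E2F match printed above. At Mcm2 the same 3 lists shared 520 bp from 160 to 679, inside the gene. At Mcm7 they shared 450 bp from 551 to 1000, counted from the upstream start, chr5:138170883-138171332. That stretch is inside the gene body but covers the downstream Mcm7 start of the promoter table, chr5:138171266, whose promoter is not printed above.

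Of the 6 helicase genes, Mcm7 had the highest BRG1 coverage in KO at 16 and WT at 20 cycles. At Mcm7 the WT lists gave 1.77% (16 cycles) and 13.9% (20 cycles), and the KO lists 12.7% and 8.48%. At Mcm5 the WT lists gave 1.02% and 8.18%, and the KO lists 5.81% and 8.03%. At both genes WT at 16 cycles stood below the other lists. Mcm2 went, WT to KO, from 0.59% to 7.92% at 16 cycles and from 7.14% to 8.90% at 20 cycles. Mcm3 went from 1.99% to 2.36% and from 7.23% to 3.10%. Mcm3, the one helicase gene with no other protein-coding gene in its window, was therefore higher in KO at the shorter and lower in KO at the longer sonication. Mcm4 went from 1.82% to 3.44% and from 6.05% to 4.42%. Mcm6 stayed within 3.48% to 4.41%, going from 4.41% to 3.60% and from 3.48% to 4.24%. Its BRG1 coverage came from a region at the start and a wider region of 1262 to 1872 bp centred 2.07 to 2.09 kb into the gene, present in all 4 lists.

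Of the 9 windows that of the loader gene Cdt1 had the widest BRG1 coverage, much of it in the flanks. Cdt1, whose protein carries the helicase to the origin, went, WT to KO, from 6.83% to 15.4% at the shorter sonication and from 35.0% to 24.8% at the longer, the highest of the 9 windows in each list. Regions centred near −9.2, −7.0 and 8.5 kb from its start, in a window that also holds Aprt and Galns, added to these values; on the gene body alone Cdt1 was highest in no list, with 0.82% and 18.3% in WT and 2.23% and 17.5% in KO. The highest bodies were Mcm6 (7.55%) and Pcna (22.0%) in WT, and Mcm7 (12.0%) and again Pcna in KO. Pcna went from 5.97% to 9.92% and from 13.0% to 19.3%. Cdc6 went from 2.01% to 8.52% and from 17.0% to 9.26%. Pcna was higher in KO at both lengths, and Cdc6 and Cdt1 at 16 cycles alone. These windows also hold other genes: Tmem230 and Cds2 lie within 1 kb of Pcna, and Cops6 and Ap4m1 within 1 kb of Mcm7, with Ap4m1 overlapping the Mcm7 end by 91 bp. The edges of Tmem230 and Cds2 are 226 and 157 bp from Pcna, nearer than the BRG1 stretch shared before its start. A region between such neighbours, or on one of them, cannot be given to a single gene.

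**Figure D2:**
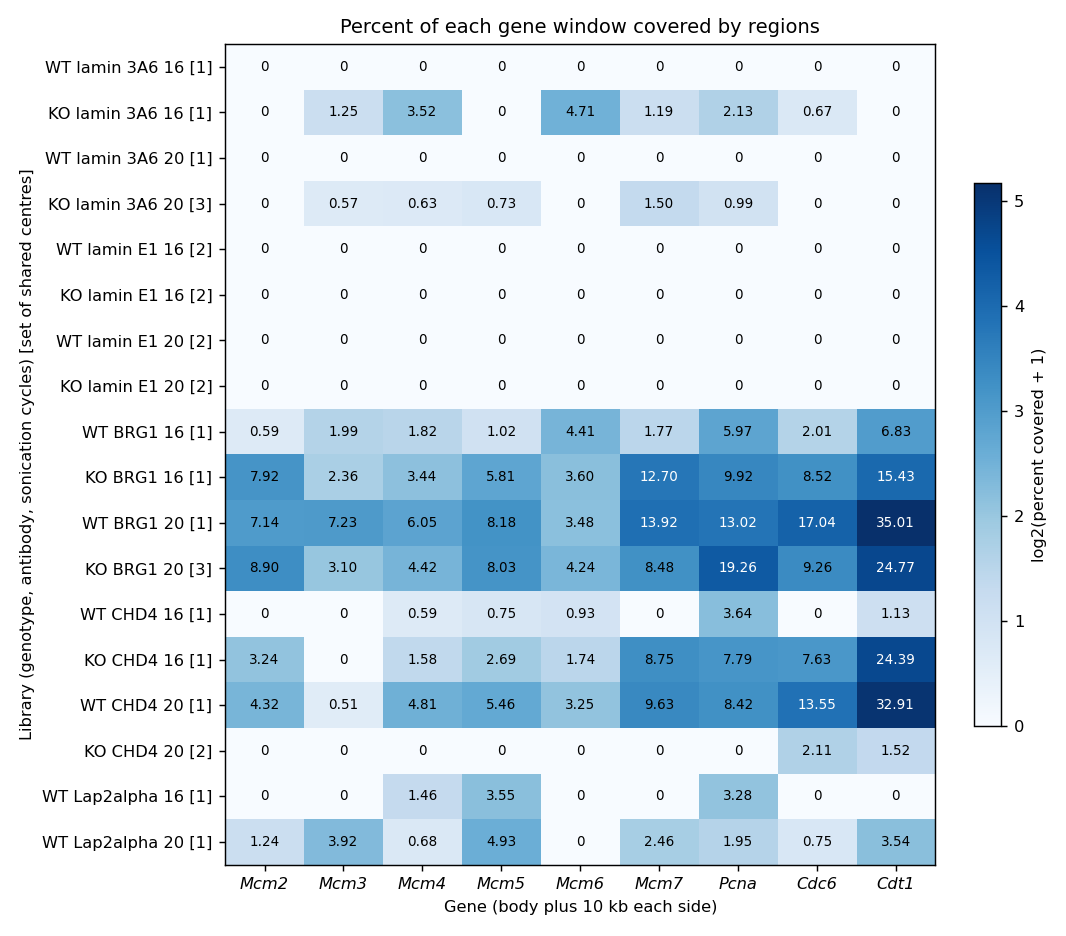
Percent of each gene window (columns) covered by regions in each of the 18 lists (rows), printed in each cell and shaded by log2(percent + 1); the number in brackets is the set of lists that share region centres. The 8 lamin rows are empty except for KO 3A6, and the highest values are those of Cdt1 in WT BRG1 (35.0%) and WT CHD4 (32.9%) at 20 cycles.

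The KO minus WT difference in BRG1 coverage had opposite signs at the 2 sonication lengths. The mean of the 9 genes went from 2.93% to 7.74%, WT to KO, at the shorter sonication, a difference of 4.81 percentage points. At the longer it went from 12.3% to 10.1%, a difference of −2.29. The mean of these differences was 1.26 ± 5.02 points (SD, n = 2 pairs), so the spread between the pairs exceeded it. KO was higher at 8 of 9 members at 16 cycles (70.5% of all genes) and lower at 6 of 9 at 20 cycles (59.6%). Over all protein-coding genes the differences were 2.66 and −1.01 points, with the same signs. Mcm2 and Pcna were higher in KO in both pairs, as were 23.9% of all genes, and 0 members were lower in both, as were 6.75% of all genes. Another 6 genes, Mcm3, Mcm4, Mcm5, Mcm7, Cdc6 and Cdt1, were higher in KO at 16 and lower at 20 cycles, as were 46.1% of all genes. Mcm6 had the reverse order, found in 1.45% of all genes, with small differences of −0.81 points at 16 and 0.76 at 20 cycles. The pair at 16 cycles comes from lists of the same set, and the pair at 20 cycles does not. In the pair at 16 cycles the KO list covered 1.70 times the bases of the WT list. At 20 cycles the ratio was 0.862.

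CHD4 regions lay on much the same stretches but were present in fewer lists. Gene-end regions were found at 3 of 9 genes in WT at 16 cycles (17.6% of all genes), 9 of 9 in WT at 20 cycles (54.7%), 5 of 9 in KO at 16 cycles (47.7%) and 0 of 9 in KO at 20 cycles (4.09%). No member had one in all 4 lists, as 1.38% of all genes had. Mcm4, Mcm6 and Pcna had one in each of the 3 lists other than KO at 20 cycles, against 15.3% of all genes. At Mcm4 the 3 BRG1 lists other than WT at 16 cycles and these 3 CHD4 lists shared 198 bp, chr16:15637894-15638091. That stretch lies at −691 to −494 bp from the Mcm4 end, within Prkdc, which encodes the catalytic subunit of the DNA-dependent protein kinase and whose body is 43 bp from that of Mcm4. At Mcm6 the same 6 lists shared 46 bp, 180 to 225 bp inside the gene. At Pcna they shared no base within 1 kb of the start. There the 3 CHD4 lists shared 226 bp from 384 to 609, inside the gene, and all 4 BRG1 lists shared −1000 to −289. At each remaining member the 3 CHD4 lists shared no base there among themselves.

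The Cdt1 window had the widest CHD4 coverage in KO at 16 and WT at 20 cycles; WT to KO, it went from 1.13% to 24.4% at 16 and from 32.9% to 1.52% at 20. Most of this lay in the flanks or before the start, and on the gene body Pcna was highest in these lists, with 6.01% and 25.5% against 1.92% and 16.9% for Cdt1. Cdc6 went from 0% to 7.63% and from 13.6% to 2.11%. Pcna went from 3.64% to 7.79% and from 8.42% to 0%. These genes all changed direction between the sonication lengths. In the helicase genes the KO list at 20 cycles covered nothing. Mcm7 went from 0% to 8.75% between WT and KO at the shorter sonication and had 9.63% in WT at the longer, and Mcm2 had 0%, 3.24% and 4.32% in these lists. Mcm4, Mcm5 and Mcm6 had 0.59% to 0.93% in WT at 16 cycles, 1.58% to 2.69% in KO at 16 cycles and 3.25% to 5.46% in WT at 20 cycles. Mcm3 stood apart with 0.51% in WT at 20 cycles and no CHD4 region in the other lists, although its start held BRG1 in all 4.

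The mean CHD4 coverage of the 9 genes went from 0.783% to 6.42%, a difference of 5.64 points, at the shorter sonication, and from 9.20% to 0.403%, a difference of −8.80, at the longer. The mean of these was −1.58 ± 10.2 points (SD, n = 2 pairs), again smaller than the spread between pairs. KO was higher at 8 of 9 members at 16 cycles (68.1% of all genes) and lower at 9 of 9 at 20 cycles (76.5%). Over all genes the differences were 2.69 and −4.41 points. All members other than Mcm3 were higher in KO at 16 and lower at 20 cycles, 8 of 9 against 64.4% of all genes. None was higher in both pairs (0.512% of all genes) or lower in both (6.77%). The KO list at 20 cycles, with 7283 regions, was the shortest of the 18 and of another set than its WT partner. At 16 cycles the KO list covered 2.18 times the bases of the WT list.

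**Figure D3:**
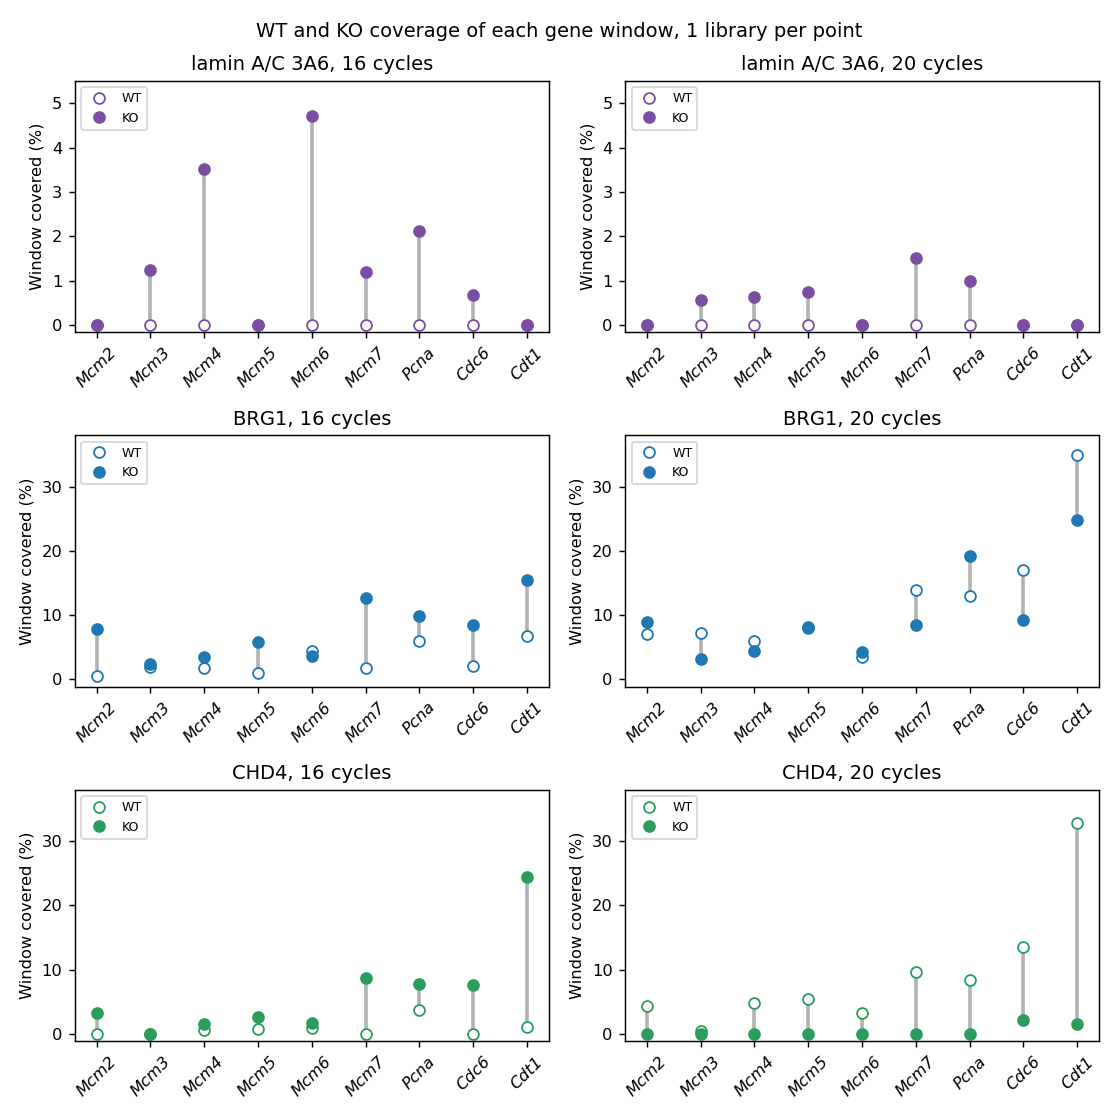
Window coverage in percent for each of the 9 genes in WT (open) and KO (filled), 1 library per point, in the 3A6, BRG1 and CHD4 pairs at 16 cycles (left) and 20 cycles (right); grey lines join the libraries of a pair and the lamin panels have their own scale. For BRG1 and CHD4, KO lay above WT at 8 of 9 genes at 16 cycles and below it at 6 and 9 of 9 genes at 20 cycles, against 70.5% and 68.1% of all genes above and 59.6% and 76.5% below; the 3A6 values were at 0 in WT throughout.

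**Figure D4:**
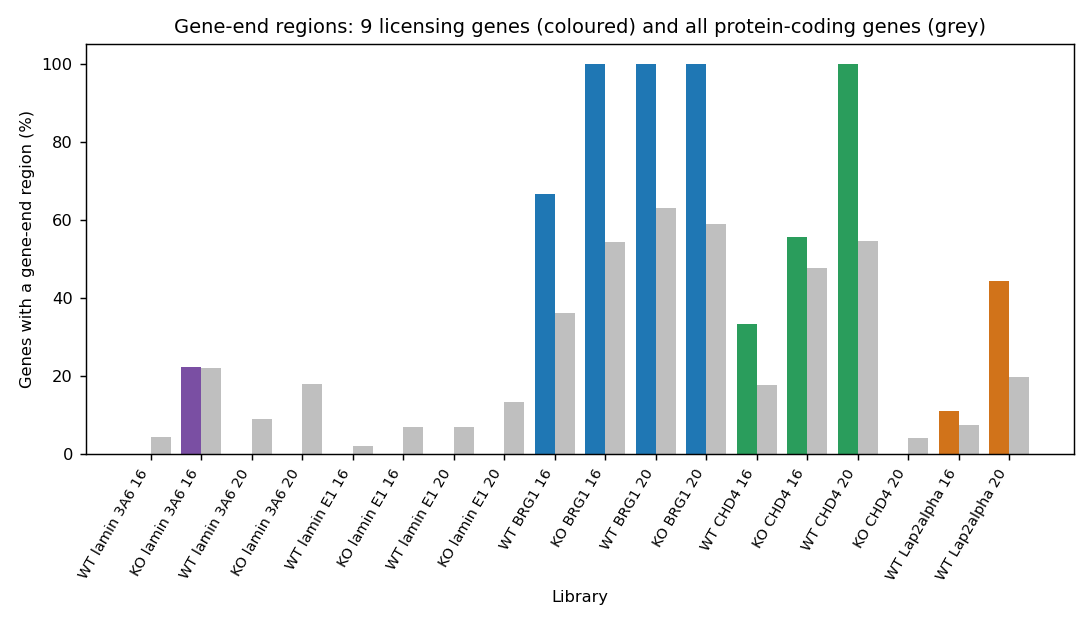
Percent of the 9 licensing genes (coloured bars) and of all 21887 protein-coding genes (grey bars) with a gene-end region in each list. The licensing genes stood above all genes in the BRG1 lists (66.7% against 36.2% in WT at 16 cycles and 100.0% against 54.4% to 63% in the others), and at 0 in 7 of the 8 lamin lists.

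Lamin A/C regions were absent from the licensing gene windows in WT. None of the 9 windows held a lamin region in any of the 4 WT lists, 3A6 or E1, which was also true of 71.8% of all genes and of 83% of genes of the members' length. The 2 KO E1 lists held none in these windows either (61.9% of all genes), so that 9 of 9 genes had none in any WT or KO E1 list, against 57.9% of all genes and 71.8% of those of the members' length. In KO 3A6, 6 of 9 windows held a region at 16 cycles (75.6% of all genes) and 5 of 9 at 20 cycles (60.3%). At least 1 of these lists had a region at 7 of 9 genes, near the 81.5% of all genes, and both had at 4 of 9, against 54.5%. A region in KO 3A6 with none in any other lamin list was thus found at 7 of 9 genes, against 41.4% of all genes and 49.6% of genes of the members' length. This count joins the KO 3A6 share to the absence from the other lists. Of the 12677 genes with no region in those other lists, 9072 had one in KO 3A6. Among genes of the members' length these were 4882 of 7073.

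Among the helicase genes Mcm6 had the most lamin A/C in KO, with 4.71% of its window covered in 3A6 at 16 cycles and 0% at 20 cycles. Mcm4 followed with 3.52% and 0.63%, then Mcm7 with 1.19% and 1.50% and Mcm3 with 1.25% and 0.57%. Mcm5 had 0% and 0.73%, and Mcm2 had none at either length. Outside the helicase, Pcna had 2.13% and 0.99%, Cdc6 had 0.67% and 0%, and Cdt1, the gene with the widest BRG1 window coverage, had no lamin region in any of the 8 lists. Mcm3, Mcm4, Mcm7 and Pcna were thus higher in KO in both 3A6 pairs, 4 of 9 against 44.6% of all genes. None was lower in both (5.26% of all genes), and in E1 none was higher in both pairs (18.3%) or lower in both (1.29%).

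The KO lamin regions were short and scattered. The 3A6 list at 16 cycles had 19 of them in 6 windows, 144 to 549 bp wide with a median of 276 bp, where the median of the whole list was 224 bp. Of these, 8 lay in gene bodies, 7 in Mcm6 and 1 in Mcm3. At 20 cycles there were 6 regions in 5 windows, 1 of them in a body, that of Mcm5. A BRG1 region of KO cells overlapped 4 of the 19 regions and 1 of the 6, against 13.6% and 8.43% of the regions of the whole lists. The widest, chr1:128357234-128357782 in Mcm6, was 549 bp long and centred 2.20 kb from the start, on the intragenic BRG1 region described above. The region chr16:15637853-15638132 beyond the Mcm4 end had its centre at −592.5 bp, the same centre as a BRG1 or CHD4 region in 7 other lists.

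Gene-end lamin regions were found in KO at 2 of 9 genes, Mcm4 and Mcm6, both in 3A6 at 16 cycles, against 39.2% of all genes in at least 1 KO list and 22.1% in that list. The other KO lists had 0 of 9, against 17.9% of all genes in 3A6 at 20 cycles and 7.01% and 13.4% in E1 at 16 and 20 cycles. The Mcm6 region lay at its 3′ end, chr1:128332103-128332310, and the Mcm4 region was the one shared with BRG1 and CHD4. In WT the count was 0 of 9, against 12.4% of all genes in at least 1 list, or 4.41% and 8.96% in 3A6 and 2.08% and 6.92% in E1. The KO minus WT difference in mean coverage was 1.50 points in the shorter and 0.491 in the longer 3A6 pair and 0 in both E1 pairs, a mean of 0.497 ± 0.705 points (SD, n = 4 pairs). With the shorter 3A6 pair left out, this mean fell to 0.164 points and the KO gene-end count to 0 of 9. Over all genes the 4 differences were 1.05, 0.294, 0.369 and 0.794 points. The antibody and the set of the list coincide for E1, so the difference between 3A6 and E1 cannot be told apart from the form of the lists. The 3A6 pair at 16 cycles is the lamin pair with members covered whose lists are of the same set. Its KO list covered 1.87 times the bases of the WT list.

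**Figure D5:**
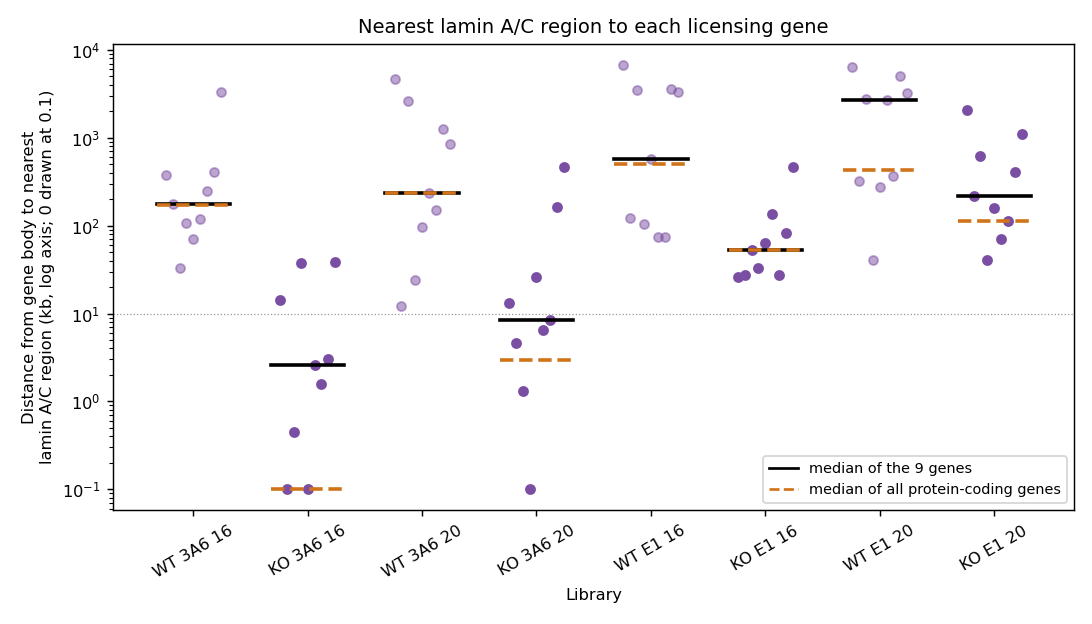
Distance in kb (log axis, 0 drawn at 0.1) from each of the 9 gene bodies to the nearest lamin A/C region in each of the 8 lamin lists; black lines are medians of the 9 genes, dashed orange lines medians of all protein-coding genes with a lamin region on their chromosome, and the dotted line is the 10 kb window edge. All WT points lie above 10 kb, and KO points fall below it in the 3A6 lists alone.

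The distance to the nearest lamin A/C region showed how far outside the windows lamin lay. In WT 3A6 the median over the 9 genes was 177 kb at 16 cycles and 237 kb at 20 cycles, and the medians of all genes were 173 and 233 kb. In WT E1 the median was 570 kb at 16 cycles and 2706 kb at 20 cycles, where those of all genes were 504 and 436 kb. In KO 3A6 it was 2.60 and 8.47 kb, against 0 and 2.92 kb for all genes, and in KO E1 52.8 and 220.2 kb, against 52.9 and 113 kb. The nearest WT region was 12.3 kb from Mcm3, in 3A6 at 20 cycles. Cdt1 was among the farthest, 856 to 3315 kb away in the WT lists and 38.5 to 1105 kb in the KO lists. Mcm5 had the most lamin in its surroundings in 7 of the 8 lists, the exception being KO 3A6 at 16 cycles, where it had 1.61% and Pcna the most, 4.26%. Within 500 kb of Mcm5, 2.78% to 9.68% was covered in the WT lists and 1.61% to 12.1% in the KO lists, while its own window held 1 lamin region in 1 list.

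Lap2alpha, mapped in WT alone, was found in the windows of 8 of 9 genes at 1 or both sonication lengths, against 77.2% of all genes, with Mcm6 the exception. Mcm5 had the most at each length, 3.55% of its window at 16 cycles and 4.93% at 20 cycles. Pcna had 3.28% and 1.95%, and Mcm4 had 1.46% and 0.68%. These 3 of 9 genes were those with a region at 16 cycles (39.4% of all genes) and at both lengths (33.7%), and 8 of 9 had a region at 20 cycles (71.5%). Mcm2, Mcm3, Mcm7, Cdc6 and Cdt1 had 1.24%, 3.92%, 2.46%, 0.75% and 3.54% at 20 cycles and none at 16. A gene-end region was present at both lengths at Pcna alone, against 2.79% of all genes, in a region centred 3.00 kb from the start, toward the 3′ end, and this was the 1 gene-end region of the 9 genes at 16 cycles (7.61% of all genes). At 20 cycles gene-end regions were present at 4 of 9 genes, Mcm3, Mcm7, Pcna and Cdt1, against 19.9% of all genes.

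Of the 25 KO 3A6 lamin regions in these windows, 4 overlapped a WT Lap2alpha region, against 11.4% of all regions of the lists. They were in the windows of Mcm4, Mcm5 and, at both sonication lengths, Pcna, and each had the same centre as the Lap2alpha region. Over the whole lists, regions overlapping Lap2alpha shared its centre in 85.8% to 86.7% of cases for KO 3A6 at 16 cycles. At 20 cycles the share was 40.7% to 41.1%. In Mcm5 the 2 regions were identical, chr8:75121462-75121747, in the gene body.

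Mcm7 carries the miR-106b-25 cluster of microRNAs in its body, shown here because remodeller and Lap2alpha regions reached it. The mature sequences from RefSeq on GRCm38.p6 have the seed, bases 2 to 8, in capitals.
miR-25-3p: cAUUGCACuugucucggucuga
miR-93-5p: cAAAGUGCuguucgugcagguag
miR-106b-5p: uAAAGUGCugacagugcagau
The hairpin of Mir25, chr5:138165321-138165404, was covered by a region in WT Lap2alpha at 20 cycles and KO BRG1 at 16 cycles. Those of Mir93 and Mir106b, whose 5p forms share a seed, were covered in 0 of the 18 lists.

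Other genes of replication were compared from a list of 52 that holds origin recognition, firing and fork proteins. Of these, 34 had a BRG1 gene-end region in all 4 lists and 48 in the 3 other than WT at 16 cycles, against 33.9% and 49.7% of all genes. Lamin A/C was absent from all WT windows of 45 (71.8% of all genes), and 45 had a region in at least 1 KO 3A6 list (81.5% of all genes). Coverage was higher in KO in both 3A6 pairs at 23 of 52 (44.6% of all genes), with a median change of 0.70 points against 0.68 over all genes. Mcm8, a helicase of recombination repair, went from 0% in WT to 6.13% in KO at 16 cycles and 3.63% at 20 cycles. Orc4, a subunit of the origin recognition complex, went from 0% to 6.60% and 2.57%. In both E1 pairs 2 of 52 were higher in KO (18.3% of all genes), Rfc3 of the clamp loader and Rpa3 of the single-strand binding complex. For BRG1, 19 of 52 were higher in KO in both pairs (23.9% of all genes) and 3 lower (6.75%). Rnaseh2a, a subunit of ribonuclease H2, had 5.83% in WT and 25.0% in KO at 16 cycles, then 20.5% and 22.4% at 20 cycles. Dbf4, the activator of the Cdc7 kinase, was lower in KO in both BRG1 pairs, from 8.21% to 7.18% and from 12.0% to 5.07%, and in both CHD4 pairs, from 5.71% to 2.13% and from 7.10% to 0%. A BRG1 gene-end region in all 4 lists was also present at 8 of 13 genes of the E2F and retinoblastoma families and at 8 of 13 cyclin and CDK genes.

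Across the 18 lists, the protein-coding genes whose coverage was most like the mean of the 9 members were Sppl3 (Pearson's r = 0.992), Sh3bp5 (0.988), Ift46 (0.986), Taf5 (0.985) and Arhgap22 (0.985). The mean of all genes had r = 0.914 with the members' mean. The lists share antibodies and list lengths, so these values describe likeness of pattern over 18 lists and carry no p.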

How the data were processed

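The authors deposited each ChIP-seq library as a list of intervals (chromosome, start and end in base pairs), with no height, fold or significance, so all listed regions count alike. Per the submitters' processing notes the build was GRCm38 and the tools included MACS2 2.1.4, HOMER 4.11.1, SAMtools, deepTools and bedtools; the sources used here do not state the calling threshold, the control or the read depth. Lists from deeper libraries can be longer.

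From the lists, intervals of width 0 and off the assembled chromosomes were left out, overlapping intervals of a list were merged, and coverage was computed with python 3.11.15, numpy 2.4.6 and pandas 2.3.3. The interval code was tested on simulated data. Genes and promoters came from RefSeq tables, and overlap meant at least 1 bp. A gene-end region lay within 1 kb of either gene end. Offsets were counted from the gene start, or, for Mcm4, from the end facing Prkdc. Groups came from sample titles, and WT and KO were matched on antibody and cycles. Differences are given per pair, with mean ± SD over pairs, which differ in antibody or sonication and are not biological replicates.

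All 9 members are named in the coverage comparisons of each target. From the lists of other genes, those highest or lowest in every pair were taken by a rule, and the text gives examples of them. The members and lists were chosen with earlier results of these data known. Alternatives included other windows, merged gaps, a minimum width, equal region numbers, single sonication lengths or antibodies, and pairs left out.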

Additional observations from a re-analysis of the deposited data

Results flagged for a closer look

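The mean KO minus WT difference in BRG1 coverage over the 9 licensing genes was 4.81 percentage points at 16 cycles and −2.29 at 20 cycles, and that in CHD4 coverage was 5.64 at 16 cycles and −8.80 at 20 cycles. Each was singled out because the only pair at one sonication length moved up and the only pair at the other moved down. The difference between the lengths was not tested, with 1 pair at each. The pairs at 20 cycles join lists of different sets of region centres.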

How the results depend on the processing

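Of 73 alternatives over 8 results, 58 did not change sign and stayed within the spread between pairs or within 1.5 times the count. They include the lamin difference in E1 alone, which was 0 and so had no direction. Some of the 58 were fixed in advance. All 12 for the WT lamin gene-end count had to stay 0, as no WT lamin region lay nearer than 12.3 kb to a member. The CHD4 count in all lists had to stay 0 wherever KO at 20 cycles was kept, as its nearest region was 7.65 kb away. The mean BRG1 difference turned to −2.29 points at 20 cycles alone. With 2 pairs, either pair alone lies within their SD of the mean, so it could be counted only as unchanged or reversed. The 58 thus include BRG1 at 16 cycles alone, 4.81 points against 1.26, and CHD4 at 20 cycles alone, −8.80 against −1.58. The mean CHD4 difference turned to 1.11 points with equal numbers of the widest regions, and to 5.64 at 16 cycles alone, which is also the value for pairs whose lists share region centres, an alternative chosen after seeing the data. The count of KO lamin gene-end regions, 2, was 1 within 500 bp of a gene end, 4 within 2 kb and 0 at starts alone. Starts alone could not count Mcm4, which has no promoter entry, although its lamin region lies beside the end facing Prkdc. The count was 1 with equal numbers of regions, 0 at 20 cycles alone, 0 in E1 alone, and 0 with the 3A6 pair at 16 cycles left out. The count of genes with CHD4 in all lists, 0, became 3 at 16 cycles alone and 3 with shared-centre pairs. The Lap2alpha count at both lengths, 1, became 0 within 500 bp and 0 at starts alone. The causes were not tested beyond the libraries or windows each alternative removes. The mean lamin difference without the 3A6 pair at 16 cycles was 0.164 points, against 0.497 with it. The E1 pair at 20 cycles was also left out, after seeing the data, and gave 0.662 points.

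WT and KO were matched on antibody and cycles, which gives the pairs above. By replicate number, no paired analysis was possible because the labels carry none. Read depth is not known, so an empty window means no listed region, not absence of the protein.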
